A study of Mus musculus with 4 samples.

Results

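The S100 calcium-binding genes S100a1, S100a4, S100a6, S100a8, S100a9, S100a10, S100a11, S100a13 and S100a16 were followed by name across the cell types of mouse leg vessels, and make up 9 of the 30406 genes that all 4 count matrices list. Vessels were the popliteal lymphatic vessels, which drain the lower leg, and the superficial saphenous veins beside them, and the assay was droplet single-cell RNA sequencing. Libraries tdT1 and tdT2 are replicates of cells sorted for red fluorescence (tdT+) from Cspg4-Cre;Ai9-tdTomato mice, in which Cre under the promoter of Cspg4, a gene of pericytes and smooth muscle, switches on the tdTomato reporter. The WT library came from wild-type male mice of 9 months by its label, and the TNF-Tg library from male mice of the same labelled age that carry a TNF transgene and develop erosive arthritis. Neither WT nor TNF-Tg cells carry the reporter, and both were sorted as live cells of high light scatter, so the tdT libraries differ from them in genotype and in gate. All mice were on the C57BL/6J background, and each library pooled the vessels of 3 mice. For the tdT libraries the paper names male and female Cspg4-Cre mice. It also states that the sequencing experiments were run on separate days, so TNF-Tg over WT cannot be told apart from the day. Because WT and TNF-Tg are 1 library each, their difference has no replicate check, no p-value is given for it, and the 95% intervals below cover counting error only.

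Most S100 proteins are small calcium sensors that pair up, open on binding calcium and then grip a target protein. S100a8 and S100a9 together form calprotectin, which fills the cytosol of neutrophils, is released at sites of inflammation, starves microbes of metals and signals through Toll-like receptor 4, and is raised in inflamed joints. S100a4 and S100a6 are common in motile cells such as fibroblasts, monocytes and T cells, while S100a10 and S100a11 bind annexins at membranes.

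The libraries held 1504 (tdT1), 454 (tdT2), 5488 (WT) and 3391 (TNF-Tg) cells, with a median of 6393.5, 4932.5, 12660 and 10605 UMIs (unique molecular identifiers, counted molecules) per cell. Together the 9 genes took 0.640%, 1.72%, 1.43% and 2.03% of all UMIs in that order. Between 0 and 5 cell barcodes were shared by any pair of libraries. Cells were clustered without the S100 genes, and a cluster took a name ending in "-like" only from fixed markers. The LMC-like (lymphatic muscle) and VSMC-like (venous smooth muscle) names follow the markers of the study. In the WT and TNF-Tg libraries the smooth muscle and pericyte genes Acta2, Myh11, Tagln, Rgs5 and Notch3 summed to only 0.513 to 6.84 counts per 1000000 UMIs (CPM) in these classes, against 23563 to 39878 CPM for Prrx1, Pdgfra, Col1a1, Col1a2 and Dcn, genes of fibroblast-type stroma. Both are therefore called stromal below. Library tdT1 stood apart, with 516 of its 1504 cells above 10% mitochondrial UMIs. Scrublet predicted 4, 0, 137 and 74 doublets in the libraries. Of these, 71 of WT and 31 of TNF-Tg fell in a cluster of mostly doublets, which took no name and entered no ratio. The rest were kept in their clusters unless stated otherwise.

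All 9 genes lie on mouse chromosome 3 (GRCm38), 7 of them within 185 kb. From S100a1 (chr3:90511034-90514392, minus strand) the block runs through S100a13 (chr3:90514435-90524581, plus), which starts 42 bases away, S100a16 (chr3:90537254-90543151, plus), S100a4 (chr3:90603771-90606045, plus), S100a6 (chr3:90612882-90624181, plus), S100a8 (chr3:90668978-90670035, plus) and S100a9 (chr3:90692632-90695721, minus). S100a11 (chr3:93520488-93526287, plus) and S100a10 (chr3:93555080-93564643, plus) follow after a gap of 2824766 bases. The S100a4 locus overlaps the predicted gene Gm42674 on the same strand, which only the tdT1 matrix lists, with 0 UMIs beside 3110 of S100a4. Whether the overlap changed the S100a4 counts of tdT1 was not tested.

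Start-site sequences are shown for the neutrophil pair and for the neighbours S100a4, scarce in neutrophil-like cells, and S100a6, abundant in them (RefSeq promoters, GRCm38.p6, 5′ to 3′ on the gene's strand). Capitals mark letters of the motifs searched on both strands, the core promoter letters TATAAA, the AP-1 motif TGANTCA, the C/EBP motif TTNNGCAA and the PU.1 motif GAGGAA, which reads TTCCTC on the other strand.
S100a8 (chr3:90669029-90669058, plus strand): caagctTTCCTCTATAAAagcagctgacac
S100a9 (chr3:90695704-90695733, minus strand): caaggagctgccTATAAAtactgggcttac
S100a4 (chr3:90603670-90603769, plus strand): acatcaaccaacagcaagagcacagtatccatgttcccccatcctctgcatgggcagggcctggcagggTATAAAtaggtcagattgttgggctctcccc
S100a6 (chr3:90612794-90612881, plus strand): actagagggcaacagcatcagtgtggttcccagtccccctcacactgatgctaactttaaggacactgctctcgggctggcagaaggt
TATAAA stood 31 bases before the RefSeq start of S100a4 and 30 before that of S100a8, where a PU.1 match abuts it without overlap. In GENCODE, whose S100a8 gene begins further upstream, all 30 printed S100a8 bases lie in exons, and so do 18 of the 30 printed S100a9 bases, including the match. Over the 300-base windows, TATAAA was in 3 of the 8 members with an entry, S100a4, S100a8 and S100a9, and in 13.6% of all 32851 promoters. TGANTCA was in 7.81% of all promoters and occurred in S100a11 (2 matches) and in 1 of 2 S100a16 promoters. TTNNGCAA, in 10.8% of all promoters, matched S100a9 alone among the members, and GAGGAA, in 28.3%, matched S100a4, S100a8, S100a11 and S100a16. S100a10 has no entry. These matches describe letters and do not show binding.

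**Figure D1:**
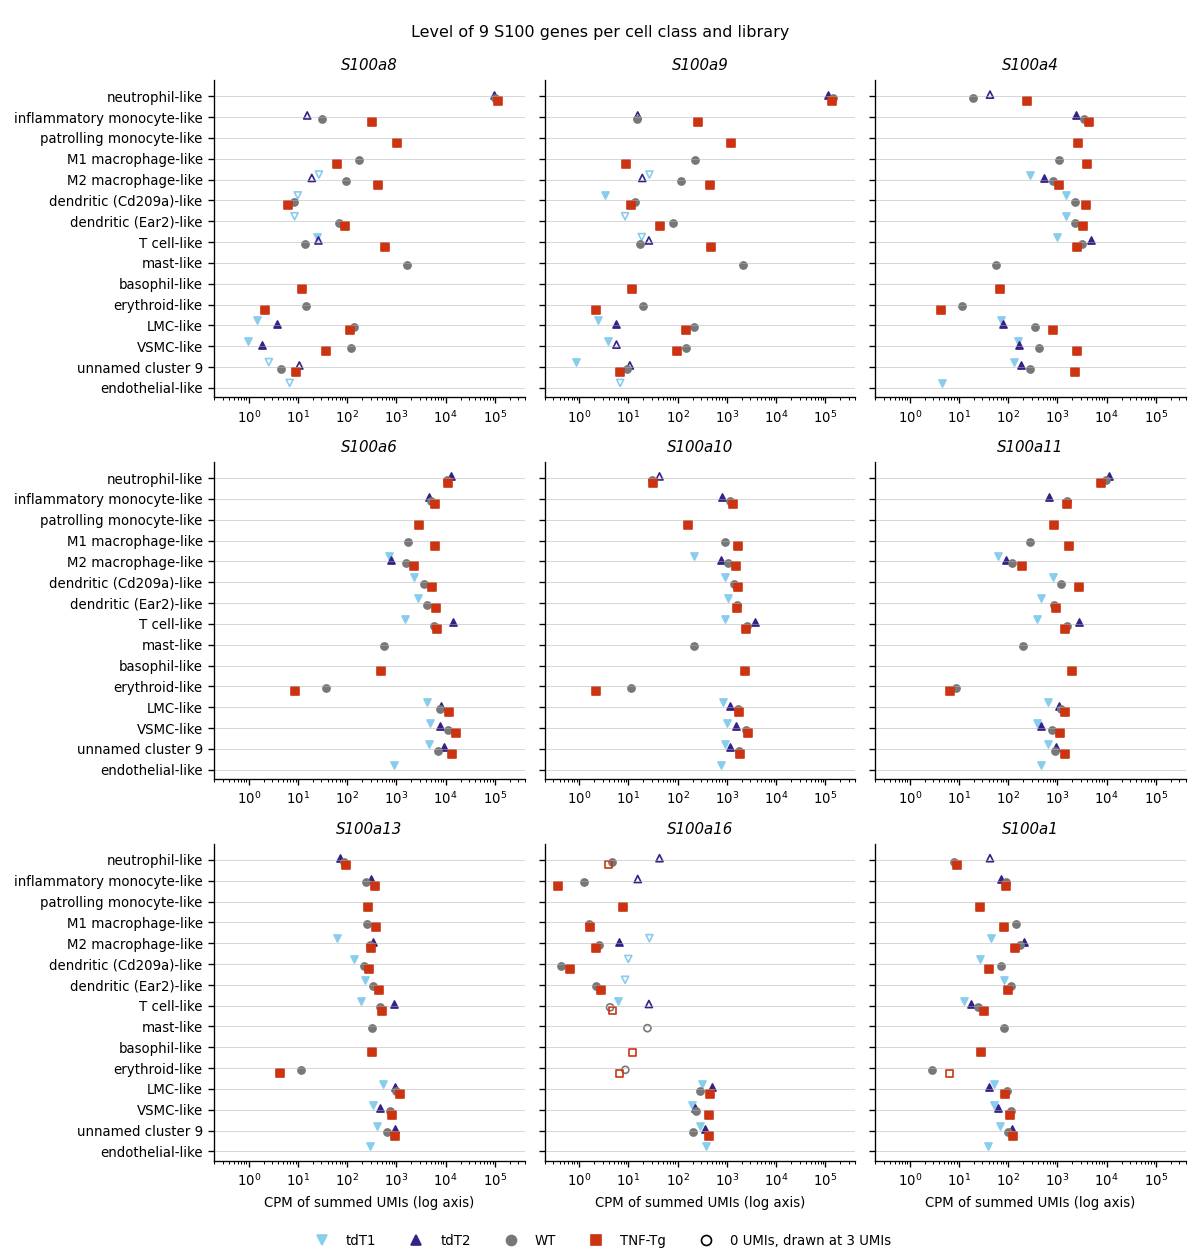
Level of each S100 gene (x axis, CPM of summed UMIs, log axis) in every cell class with at least 20 cells in a library (y axis), with 1 marker per library and open markers for 0 UMIs drawn at the level of 3 UMIs. S100a8 and S100a9 reach 117336 and 140990 CPM in the neutrophil-like class, and S100a16 is above 100 CPM in the stromal and endothelial-like classes of the plot.

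Neutrophil-like cells carried S100a8 and S100a9 at a level far above every other class. S100a8 was at 38974, 96489, 100242 and 117336 CPM in the neutrophil-like cells of tdT1, tdT2, WT and TNF-Tg (19, 30, 344 and 227 cells). S100a9 was at 41303, 110917, 140990 and 137653 CPM in the same order. The tdT1 class, with 19 cells, was the lowest for both genes, and the other 3 libraries lay close together. TNF-Tg over WT, S100a8 was at a ratio of 1.17 (95% interval 1.16 to 1.18) and S100a9 at 0.976 (0.969 to 0.984), so neither passed a 1.5-fold limit. Among classes with at least 20 cells, the next in rank, mast-like cells of WT, had 1626 CPM of S100a8 and 2088 CPM of S100a9. Most of this sat in 2 of the 99 cells, which the filter described below leaves out. Without them 9 of 201 S100a8 UMIs and 11 of 258 S100a9 UMIs remained, at 74.5 and 91.0 CPM.

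S100a11, a partner of annexin A1, was also highest in the neutrophil-like class, with 3874, 11059, 9877 and 7504 CPM in tdT1, tdT2, WT and TNF-Tg, a TNF-Tg over WT ratio of 0.760 (0.736 to 0.784). S100a6 (calcyclin) was at 6654, 12836, 10419 and 11076 CPM and its range overlapped that of the stromal classes. The remaining members were low there. S100a10, at 30.7 CPM in WT and 31.8 in TNF-Tg, and S100a13, at 85.8 and 96.6 CPM, had less than in any other named WT or TNF-Tg class except the erythroid-like one. S100a4 had 0 UMIs in both tdT libraries and was at 19.7 CPM in WT against 238 in TNF-Tg, a ratio of 12.1 (7.94 to 19.2), but 3 of 227 TNF-Tg cells held 85.6% of those UMIs. Without the 1% of cells richest in S100a4, the log2 difference fell from 3.60 to 1.13, and with cells gated one by one on marker lists it was 0.14. By summed counts, S100a4 was thus the 1 of 7 members tested that was at least 1.5-fold higher in TNF-Tg neutrophil-like cells, against 18.3% of all genes tested in that class, and 0 were 1.5-fold lower, against 19.5%.

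Inflammatory monocyte-like cells (14, 25, 72 and 499 cells in tdT1, tdT2, WT and TNF-Tg) had the highest median level of S100a4 among the named classes. S100a4 was at 1771, 2372, 3430 and 4314 CPM in the same order. S100a6 was at 2490, 4503, 5100 and 6188 CPM. Both were highest in TNF-Tg, by a ratio of 1.26 (1.21 to 1.31) and 1.21 (1.17 to 1.25) over WT. S100a10 (1173 and 1324 CPM in WT and TNF-Tg), S100a11 (1559 and 1563) and S100a1 (90.0 and 89.2) differed by less than 1.2-fold. S100a13, which takes part in the release of FGF1, was at 242 CPM in WT and 371 in TNF-Tg (ratio 1.53, 1.32 to 1.78). Of 8 members tested, 3 were at least 1.5-fold higher in TNF-Tg (S100a8, S100a9 and S100a13; 15.2% of all genes were) and 0 were lower (16.2%). The S100a13 call was lost with clusters of WT and TNF-Tg alone and with cells gated one by one (log2 0.57 in each, beside 0.61). Among all genes past the limit in this class, 48.4% were higher by CPM and 59.9% after TMM scaling. The makeup of the class also differed between the libraries. Its 7 inflammatory monocyte markers summed to 9008 CPM in WT and 6397 in TNF-Tg. The 6 patrolling monocyte markers summed to 375 and 790 CPM, and the 8 M1 macrophage markers to 800 and 388. The part of cell makeup in the S100 differences of this class was not tested.

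The neutrophil pair came apart in these monocytes. Over all cells, S100a8 was at 31.2 CPM in WT and 312 in TNF-Tg (ratio 10.0, 6.75 to 15.5), and S100a9 at 15.0 and 258 CPM (ratio 17.2, 9.81 to 33.3). Nearly all of the S100a9 sat in few cells, since the 5 richest of 499 TNF-Tg cells held 96.8% of its UMIs, against 62.5% for S100a8. Cells called doublets, or with 3 or more UMIs of the neutrophil genes Retnlg, Cxcr2, Stfa2l1 and Wfdc21, were then left out. The latter are called cells with neutrophil RNA below. A cell could meet this limit on Wfdc21 alone, which had 287 UMIs in all TNF-Tg monocytes, beside 35 of Retnlg and 17 of Cxcr2. This alternative was chosen after seeing the data and left 71 WT monocytes of 72 and 464 TNF-Tg monocytes of 499. S100a8 was then at 29.1 CPM in WT against 104 in TNF-Tg (ratio 3.57, 2.35 to 5.68), while S100a9 was at 15.2 and 8.67 CPM (ratio 0.571, 0.296 to 1.19). S100a8 thus stayed above its WT level in the remaining TNF-Tg cells, and S100a9 was at the level that stromal cells also showed.

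Counted per S100a9 UMI, these TNF-Tg monocytes had 12 S100a8 UMIs (8.81 to 16.7). The WT monocytes had 1.92 (0.915 to 4.23), on only 23 S100a8 and 12 S100a9 UMIs. The neutrophil-like quotients were 0.870 (tdT2), 0.711 (WT) and 0.852 (TNF-Tg), and LMC-like cells treated the same way had 0.623 in WT and 0.667 in TNF-Tg. Of the 464 TNF-Tg monocytes, 146 had an S100a8 UMI, 43 an S100a9 UMI and 18 had both. At most 35 S100a8 UMIs were in any of them, and 29 cells had 5 or more. After thinning each cell to 1500 UMIs, 10.2% of 462 cells kept an S100a8 UMI (7.57 to 13.3%), against 0.866% for S100a9 (0.236 to 2.20%). In LMC-like cells of the same library, which should lack both genes, 0.990% and 0.792% of 505 cells did, at a median of 12381 UMIs per cell before thinning, beside 10611 in the monocytes. In the 71 WT monocytes the S100a8 share was 4.23% (0.880 to 11.9%), and its interval overlapped that of TNF-Tg.

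M1 macrophage-like cells of TNF-Tg showed the same order at lower levels. With the same filter, S100a8 was at 16.5 CPM in WT and 36.9 in TNF-Tg (ratio 2.23, 1.73 to 2.89). S100a9 was at 26.2 and 7.07 CPM (0.270, 0.179 to 0.397). In WT, 1 of the 506 kept cells held 48 of the 101 S100a8 UMIs, so the WT S100a8 level and quotient lean on it. Values without that cell were not calculated. In TNF-Tg the filter left out 21 of 328 cells, and S100a8 fell from 307 to 167 UMIs and S100a9 from 43 to 32. Wfdc21 had 178 UMIs in this class, beside 2 of Retnlg, so these cells need not hold neutrophil RNA. How far this lowered S100a8 was not tested. S100a8 per S100a9 was 0.631 in WT (0.487 to 0.815) and 5.22 in TNF-Tg (3.56 to 7.88). Among the classes with at least 20 UMIs of the pair, these 2 TNF-Tg classes lay farthest above the neutrophil quotient. Patrolling monocyte-like cells of TNF-Tg (183 of 190 kept) had 16.5 CPM of S100a8 and 17.2 CPM of S100a9, a quotient of 0.958 (0.517 to 1.77). In M2 macrophage-like cells it was 0.810 in WT and 1.22 in TNF-Tg.

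**Figure D2:**
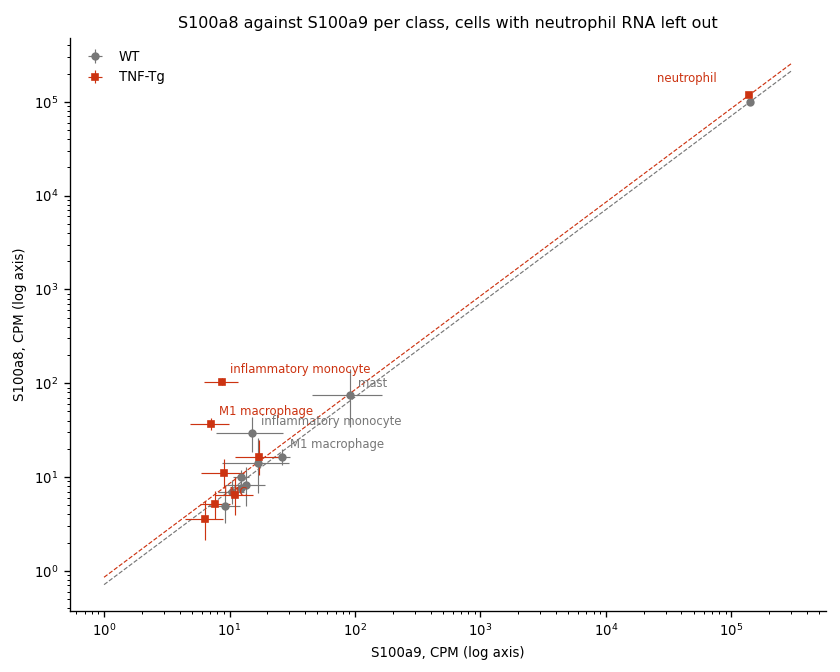
S100a8 against S100a9 (both axes CPM, log axes) per cell class in WT and TNF-Tg, for classes with at least 20 UMIs of the pair. Doublets and cells with 3 or more UMIs of Retnlg, Cxcr2, Stfa2l1 and Wfdc21 were left out. Bars are 95% counting intervals and dashed lines the quotient of the neutrophil-like class of each library. TNF-Tg inflammatory monocyte-like cells (104 against 8.67 CPM) and M1 macrophage-like cells (36.9 against 7.07 CPM) lie above both lines.

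In M1 macrophage-like cells, of which the tdT libraries held fewer than 20 each, S100a11, S100a6 and S100a4 were several-fold higher in TNF-Tg. S100a11 was at 283 CPM in WT (511 cells) and 1733 in TNF-Tg (328 cells), a ratio of 6.12 (5.82 to 6.45). S100a6 was at 1711 and 6192 CPM (3.62, 3.54 to 3.70), and S100a4, which binds nonmuscle myosin, at 1087 and 3914 CPM (3.60, 3.50 to 3.70). S100a10, the partner of annexin A2, was at 899 and 1686 CPM (1.87, 1.81 to 1.94). S100a13, at 251 and 377 CPM (1.498, 1.40 to 1.60), fell just short of 1.5-fold. Its log2 difference of 0.58 ranged from 0.41 to 0.74 over the alternative runs. S100a1, best known from heart muscle, went the other way, from 147 to 80.3 CPM (0.548, 0.485 to 0.617). With all cells kept, S100a8 was at 177 and 63.0 CPM and S100a9 at 220 and 8.83 CPM, and 6 of the 511 WT cells held 95.6% of the S100a8 UMIs. In all, 4 of 8 members tested were at least 1.5-fold higher (16.2% of all genes) and 3 at least 1.5-fold lower (30.1%). Of all genes past the limit here, 34.9% were higher by CPM and 47.5% after TMM scaling.

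The difference was spread over most M1 macrophage-like cells. Thinned to 1500 UMIs, cells with 3 or more S100a4 UMIs made up 25.7% in WT and 88.7% in TNF-Tg, and cells with no S100a11 UMI 68.0% and 15.0%. The makeup of the class differed between the libraries at the same time. Its 8 M2 macrophage markers summed to 10466 CPM in WT and 1596 in TNF-Tg, its 7 inflammatory monocyte markers to 1332 and 3098, and its 8 M1 macrophage markers to 3020 and 1953. Without cells that had a UMI of the M2 genes Lyve1, Cd209f, Cd163 or Folr2, which left 58 WT and 145 TNF-Tg cells, the log2 difference was 1.95 for S100a11 (2.61 before), 1.00 for S100a4 (1.85), 0.85 for S100a6 (1.86) and 0.78 for S100a10 (0.91). All 4 stayed past 1.5-fold. The part of cell makeup in the rest was not tested.

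M2 macrophage-like cells differed less. S100a4 was at 275, 522, 830 and 1085 CPM in tdT1, tdT2, WT and TNF-Tg (TNF-Tg over WT 1.31, 1.26 to 1.36), S100a6 at 692, 789, 1555 and 2277 CPM (1.46, 1.43 to 1.504) and S100a10 at 213, 744, 1032 and 1501 CPM (1.45, 1.41 to 1.502). S100a11 was low, at 62.1, 89.1, 121 and 194 CPM (1.60, 1.46 to 1.76). Of 9 members, 3 were at least 1.5-fold higher (S100a8, S100a9 and S100a11; 17.2% of all genes) and 0 lower (13.9%), and the share of higher genes among all those past the limit was 55.4% by CPM and 40.1% after TMM scaling. The S100a11 call was lost without doublets (log2 0.54, beside 0.68), with the mean of single-cell CPM (0.51) and with TMM scaling (0.56). The S100a8 ratio of 4.44 rested on 3 of 261 TNF-Tg cells, which held 97.5% of the UMIs, and without doublets and cells with neutrophil RNA it was 1.09 (0.725 to 1.61). With the same cells left out, the S100a9 ratio went from 3.83 (3.57 to 4.12) to 0.725 (0.464 to 1.09). It then rested on 174 UMIs in WT and 27 in TNF-Tg.

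In Cd209a dendritic cells, S100a11 was at 1200 CPM in WT and 2787 in TNF-Tg (2.32, 2.23 to 2.42), S100a4 at 2267 and 3803 (1.68, 1.62 to 1.73), S100a6 at 3593 and 5320 (1.48, 1.44 to 1.52) and S100a1 at 69.8 and 40.3 CPM (0.578, 0.455 to 0.734). So 2 of 8 members were 1.5-fold higher (17.7% of all genes) and 1 lower (19%), and S100a4 was no longer past the limit with cells gated one by one (log2 0.48, beside 0.75). In Ear2 dendritic cells, of which TNF-Tg held 24, S100a6 was at 4103 and 6260 CPM (1.53, 1.46 to 1.59), the 1 of 8 that was higher (11.6% of all genes), and S100a9 the 1 that was lower (27.9%). The S100a6 call was lost with the mean of single-cell CPM (log2 0.52, beside 0.61). The S100a9 call rested on 455 UMIs in WT and 16 in TNF-Tg (0.530, 0.300 to 0.870). Without doublets and cells with neutrophil RNA, 48 and 3 S100a9 UMIs remained, a ratio of 0.972 (0.194 to 3.01).

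The T cell-like class was named from CD3 and T cell receptor genes, but the larger of its 2 clusters was led by Ccl5, Gzma, Ms4a4b and Nkg7, genes that NK cells also express, and with WT and TNF-Tg clustered alone 54 cells led by Gzma, Ccl5, Nkg7, Ms4a4b and Ncr1 formed a cluster of their own without a name. In the whole class S100a4 was at 3141 and 2519 CPM (0.802, 0.752 to 0.856) and S100a6 at 5784 and 6516 CPM. In the T cell-like class of that clustering (58 and 66 cells), the log2 difference of S100a4 was -0.35 (-0.32 in the whole class) and that of S100a6 0.11 (0.17). Here 2 of 8 members, S100a8 and S100a9, were past 1.5-fold higher (7.5% of all genes) and 0 were lower (19.7%), but 1 cell held 365 of the 366 S100a8 UMIs of TNF-Tg. The split of all T cell-like genes past the limit was 27.5% higher by CPM and 44.2% after TMM scaling. Erythroid-like cells had 13 or fewer UMIs of every member in each library and none could be compared.

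**Figure D3:**
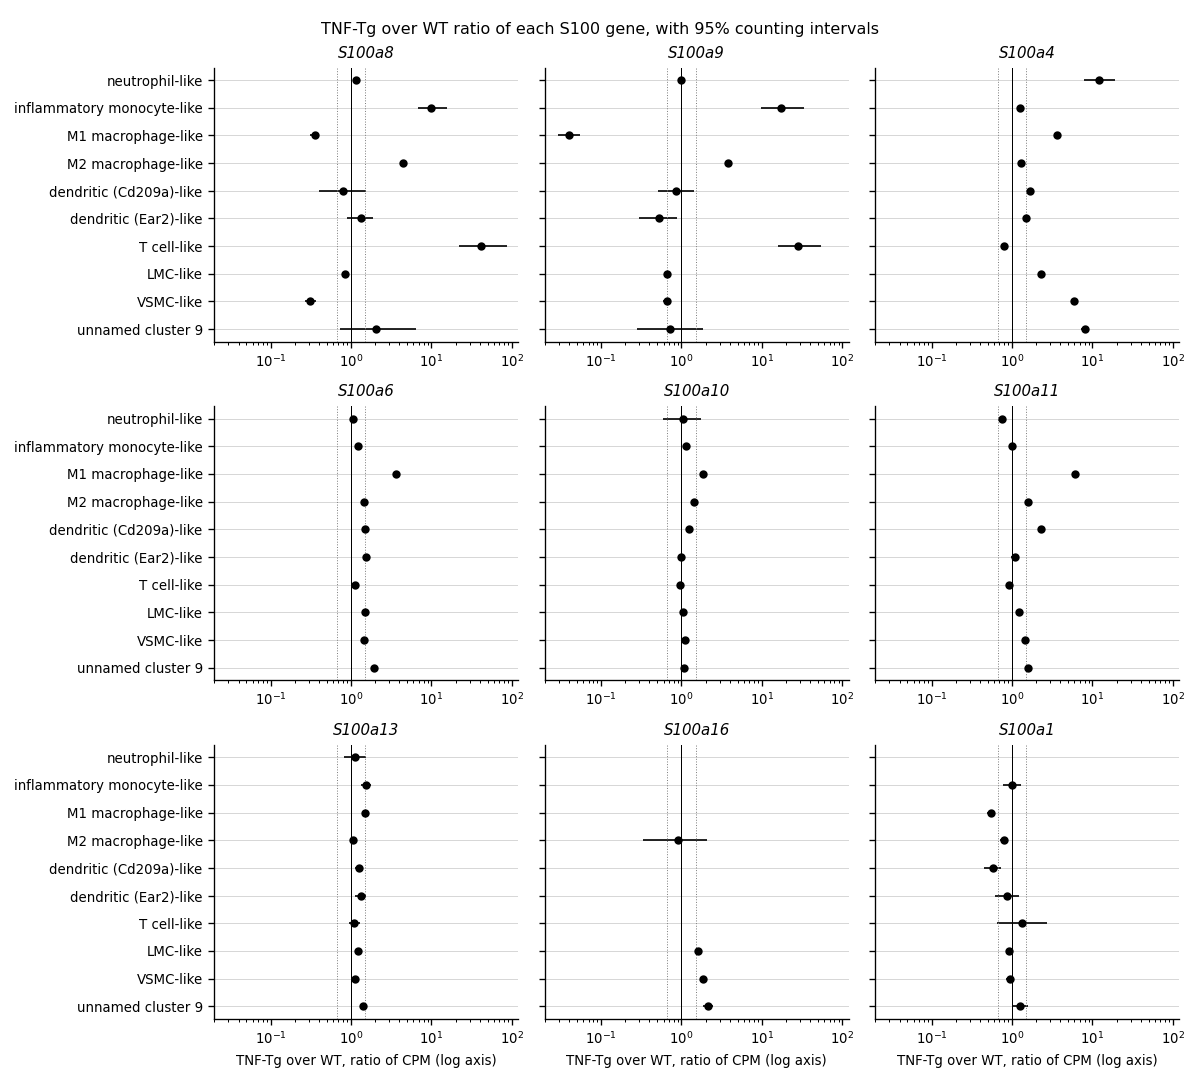
TNF-Tg over WT ratio of CPM (x axis, log axis) for each S100 gene and class (y axis) with at least 20 UMIs in both libraries together; bars are 95% counting intervals, the solid line is a ratio of 1 and dotted lines mark 1.5-fold. S100a4 lies right of the 1.5-fold line in all 3 stromal classes (2.31, 5.97 and 8.16), and S100a10 stays between the dotted lines everywhere but in M1 macrophage-like cells (1.87).

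In the stromal classes S100a4 had the largest ratio of TNF-Tg over WT among the members. In VSMC-like cells S100a4 was at 160, 167, 423 and 2529 CPM in tdT1, tdT2, WT and TNF-Tg (252, 107, 671 and 516 cells). In LMC-like cells it was at 70.3, 79.0, 345 and 798 CPM (641, 94, 1403 and 515 cells). TNF-Tg was the highest library in both, and both tdT libraries lay below WT. The TNF-Tg over WT ratio was 5.97 (5.74 to 6.22) in VSMC-like and 2.31 (2.23 to 2.39) in LMC-like cells. A further stromal cluster led by Col5a3, Col4a1, Col4a2 and Col15a1, which reached no name, had 129, 178, 283 and 2309 CPM, a ratio of 8.16 (7.33 to 9.11).

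Many cells shared the higher S100a4 level. Thinned to 1500 UMIs, 5.81% of WT and 48.9% of TNF-Tg VSMC-like cells had 3 or more S100a4 UMIs, and 5.13% and 48.0% of cells in the collagen IV cluster did. In LMC-like cells the shares were 5.35% and 14.8%. The richest 1% of VSMC-like cells held 20.3% of the S100a4 UMIs in WT and 6.95% in TNF-Tg, and without them the levels were 343 and 2407 CPM. Leukocyte markers in these classes were measured beside S100a4. Ptprc was at 4.08 and 4.62 CPM in VSMC-like and 6.50 and 6.01 CPM in LMC-like cells of WT and TNF-Tg, and the 8 M1 macrophage markers summed to 10.98 and 6.29 and to 9.96 and 7.54 CPM. The 7 inflammatory monocyte markers summed to 404 and 524 CPM in VSMC-like and 434 and 459 in LMC-like cells, of which Plac8 gave 393 and 512 and 427 and 444 CPM. The 8 M2 macrophage markers summed to 245 and 241 and to 194 and 219 CPM, of which Ccl8 gave 209 and 231 and 160 and 211 CPM. The 6 patrolling monocyte markers summed to 625 and 286 and to 706 and 460 CPM, of which Ace gave 620 and 270 and 701 and 447 CPM. Stromal cells with a UMI of Ptprc or of a neutrophil, inflammatory monocyte or macrophage marker were then left out, Plac8 and Ccl8 not counted. This kept 399 and 407 VSMC-like and 615 and 360 LMC-like cells. The log2 difference of S100a4 was then 2.48 in VSMC-like (2.58 with all cells) and 1.01 in LMC-like cells (1.21). With cells gated one by one it was 2.51 and 1.87. The markers that name the classes also differed between the libraries. The 8 VSMC markers summed to 11962 CPM in WT and 7736 in TNF-Tg VSMC-like cells, and the 8 LMC markers to 14375 and 10202 CPM in LMC-like cells. The gate gave the same class to 66.2% and 56.0% of VSMC-like cells and to 98.6% and 99.6% of LMC-like cells. The part of cell makeup in the S100a4 difference was not tested. For tdT against WT, genotype, gate, sex of the mice, depth and day of the experiment cannot be told apart. Instrument and Cell Ranger version differ as well for tdT1.

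**Figure D4:**
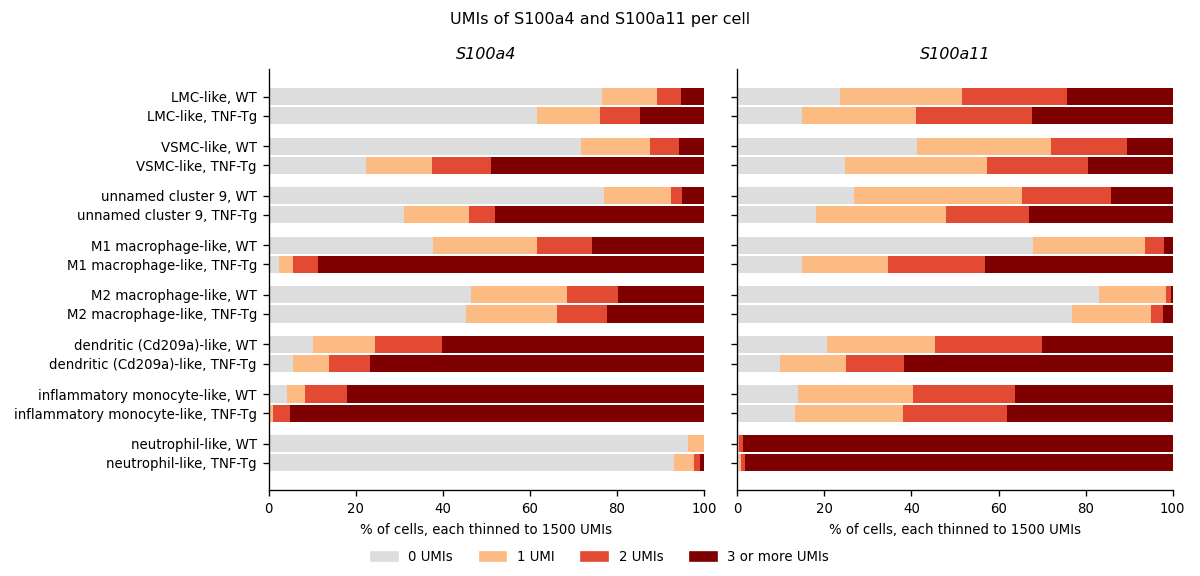
Percent of cells (x axis) with 0, 1, 2 or 3 and more UMIs of S100a4 (left) and S100a11 (right) after each cell was thinned to 1500 UMIs, for 8 classes in WT and TNF-Tg. The share of VSMC-like cells with 3 or more S100a4 UMIs is 5.81% in WT and 48.9% in TNF-Tg, and that of M1 macrophage-like cells 25.7% and 88.7%.

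S100a6 was the most counted member in stroma, and S100a16 set stromal and endothelial-like cells apart from the leukocyte classes. S100a6 was at 4834, 7840, 11298 and 16548 CPM in VSMC-like and 4141, 8025, 7675 and 11492 CPM in LMC-like cells of tdT1, tdT2, WT and TNF-Tg. Its TNF-Tg over WT ratios, 1.465 (1.45 to 1.48) and 1.497 (1.49 to 1.51), fell just short of 1.5-fold, and in the collagen IV cluster it was 1.96 (1.91 to 2.01). S100a16 was at 193, 222, 235 and 432 CPM in VSMC-like and 309, 493, 283 and 451 CPM in LMC-like cells, a ratio of 1.83 (1.72 to 1.95) and 1.59 (1.53 to 1.66). For LMC-like cells the TNF-Tg value lay inside the range of the tdT replicates (mean 401 ± 130 CPM, SD, n = 2). In the named WT and TNF-Tg leukocyte classes S100a16 was at 7.89 CPM or less, with 0 UMIs in T cell-like, mast-like and basophil-like cells.

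The other stromal members differed less. S100a11 was at 391, 473, 775 and 1124 CPM in VSMC-like and 650, 1086, 1163 and 1414 CPM in LMC-like cells, with TNF-Tg over WT at 1.45 (1.40 to 1.505) and 1.22 (1.19 to 1.24). S100a13 was at 740 and 823 CPM in WT and TNF-Tg VSMC-like and 978 and 1188 CPM in LMC-like cells, S100a10 at 2470 and 2698 and at 1694 and 1761 CPM, and S100a1 at 113 and 107 and at 93.4 and 85.2 CPM. The ratios of S100a13, S100a10 and S100a1 lay between 0.912 and 1.21. In LMC-like cells 2 of 9 members (S100a4 and S100a16) were at least 1.5-fold higher (12.5% of all genes) and 0 lower (14.9%). In VSMC-like cells 2 of 9 were higher (12.5%) and 2, S100a8 and S100a9, lower (28.8%). Here TMM scaling mattered, as S100a6 and S100a11 then also passed 1.5-fold, and the share of higher genes among all genes past the limit moved from 30.3% to 47.4%. In the collagen IV cluster 5 of 9 were higher (S100a4, S100a6, S100a8, S100a11 and S100a16; 17.7% of all genes) and 0 lower (21.2%), S100a8 on 6 and 14 UMIs; S100a11 was at log2 0.57 without cells with leukocyte markers (0.68 before).

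Stromal S100a8 and S100a9 were set beside neutrophil RNA. In LMC-like cells S100a8 was at 1.47, 3.76, 137 and 116 CPM and S100a9 at 2.46, 5.65, 216 and 144 CPM in tdT1, tdT2, WT and TNF-Tg. In VSMC-like cells S100a8 was at 0.952, 1.90, 117 and 36.6 CPM, and S100a9 at 3.81, 0 (up to 5.70 CPM, the level of 3 UMIs), 145 and 94.8 CPM. WT and TNF-Tg were high and both tdT libraries near 0. As a share of the neutrophil-like level of the same library, WT LMC-like cells had 0.136% of S100a8 and 0.153% of S100a9, and 7 neutrophil genes (Retnlg, Csf3r, Cxcr2, Stfa2l1, Wfdc21, Mmp9 and Hdc) had 0.110 to 0.330% (median 0.246%). In TNF-Tg LMC-like cells the shares were 0.0986% and 0.105% beside a median of 0.208%. For VSMC-like cells they were 0.117% and 0.103% beside 0.106% in WT, and 0.0312% and 0.0689% beside 0.0551% in TNF-Tg. Both S100 genes thus lay within the range of the other neutrophil genes in all 4 cases. Mmp9 and Csf3r were also counted in M2 macrophage-like cells of WT, at 278 and 34.5 CPM, beside 1048 and 1754 CPM in neutrophil-like cells. The range of the 7 genes thus need not reflect neutrophil RNA alone. The TNF-Tg ranges are loosely set, as Stfa2l1 had 3 UMIs in LMC-like cells and Cxcr2, Stfa2l1 and Mmp9 had 3 each in VSMC-like cells.

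The stromal UMIs of the pair were concentrated in few cells. The richest 1% of cells held 92.9 to 96.4% of them in the LMC-like and VSMC-like classes of WT and TNF-Tg, with up to 939 S100a9 UMIs in 1 LMC-like cell of TNF-Tg. Without doublets and cells with neutrophil RNA, S100a8 was at 7.66 CPM in WT and 5.12 in TNF-Tg LMC-like cells and at 6.99 and 3.55 CPM in VSMC-like cells, and S100a9 at 12.3 and 7.68 and at 10.4 and 6.36 CPM. All 4 TNF-Tg over WT ratios were then below 1, from 0.508 (0.283 to 0.879) for S100a8 in VSMC-like cells to 0.668 (0.453 to 0.960) for S100a8 in LMC-like cells. Like levels were seen in Cd209a dendritic cells, at 8.25 and 6.51 CPM of S100a8 and 13.5 and 11.1 CPM of S100a9. After thinning to 1500 UMIs, 1.23% of WT LMC-like and 1.94% of WT Cd209a dendritic cells kept an S100a8 UMI, at a median of 16218.5 and 14977 UMIs per cell before thinning. Their intervals, 0.716 to 1.96% and 0.401 to 5.55%, overlapped.

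**Figure D5:**
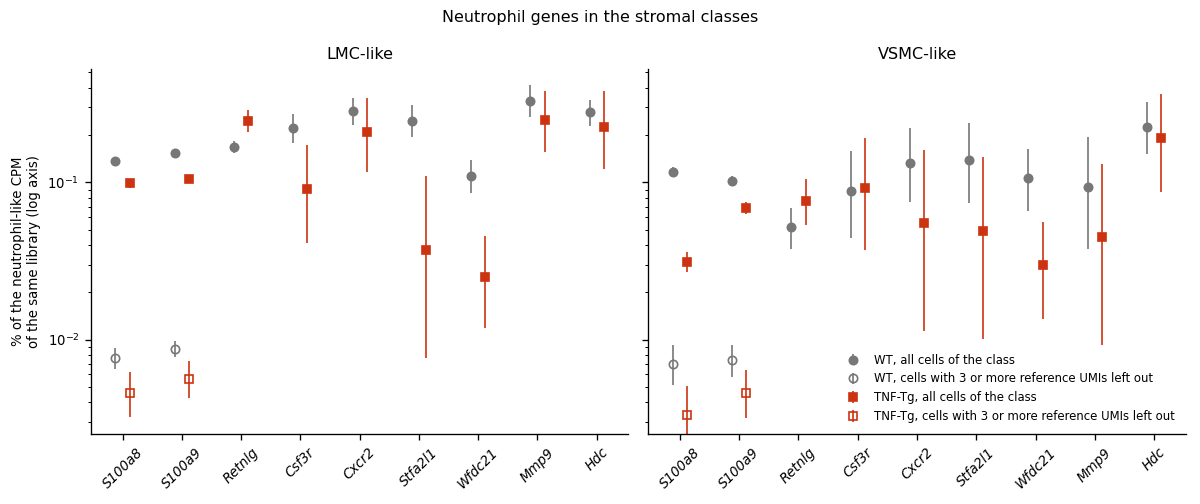
Level of S100a8, S100a9 and 7 neutrophil genes in stromal classes as percent of the neutrophil-like level of the same library (y axis, log axis), with 95% counting intervals. Filled markers use all cells, where S100a8 and S100a9 (0.0312 to 0.153%) lie among the reference genes, and open markers leave out cells with 3 or more UMIs of the 7 reference genes, where the pair is at 0.00332 to 0.00873%.

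Ranked over the named classes and the collagen IV cluster by the median of libraries with at least 20 cells, the order of the members differed by gene. S100a4 ran from inflammatory monocyte-like cells (3430 CPM) through T cell-like, patrolling monocyte-like, M1 macrophage-like and both dendritic classes, neighbours whose ranges over libraries overlapped, and then dropped to M2 macrophage-like cells (676 CPM), whose range lay below that of the Ear2 dendritic cells. S100a13 was highest in LMC-like cells (951 CPM) and S100a10 in the T cell-like class with its NK genes (2496 CPM), both with overlapping neighbours. S100a11 separated neutrophil-like cells (9877 CPM) from all other classes, and S100a16 separated LMC-like, endothelial-like, VSMC-like and collagen IV cells from the other ranked classes. S100a1 stayed at or below 210 CPM in every ranked class.

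The other S100 genes were nearly silent. S100a3, S100a5, S100a7a, S100a14, S100b, S100g and S100z were followed, and only S100a3 in LMC-like cells (35 and 3 UMIs in WT and TNF-Tg) and S100b in the stromal classes reached 20 UMIs in both libraries together. S100b was at 14.1 and 11.6 CPM in VSMC-like cells of WT and TNF-Tg. Of 6 receptors and co-receptors of secreted S100 proteins, between 2 and 5 reached 20 UMIs in a class other than the erythroid-like one, and 0 of those were 1.5-fold higher in TNF-Tg, where 7.5 to 18.3% of all genes were. Ager, the receptor RAGE, which reached 20 UMIs in no class, was at 3.94 CPM or less in every class with at least 20 cells of WT or TNF-Tg, Cd14, the co-receptor of Tlr4, was highest in neutrophil-like cells (500 and 653 CPM), and Bsg, a receptor of S100a9, in VSMC-like cells (510 and 515 CPM). In M1 macrophage-like cells 3 of 5 receptors tested were 1.5-fold lower (30.1% of all genes), among them Cd14 (398 and 177 CPM) and the lipid receptor Cd36 (161 and 33.9 CPM).

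Intracellular partners did not all follow the S100 genes. Anxa2, the annexin that S100a10 binds, was 1.90-fold higher in TNF-Tg LMC-like cells (611 and 1159 CPM), 1.98-fold in VSMC-like cells (814 and 1609 CPM) and 2.98-fold in macrophages of the M1-like class (289 and 861 CPM), while S100a10 itself had ratios of 1.04, 1.09 and 1.87. Anxa1, the annexin of S100a11, was at 1381 and 1370 CPM in LMC-like, 842 and 811 CPM in VSMC-like and, in the M1-like macrophages, 159 and 294 CPM. Ahnak, a giant scaffold protein that joins Anxa2 and S100a10, was lower in TNF-Tg VSMC-like cells, at 2470 and 1245 CPM (0.504, 0.490 to 0.518). In neutrophil-like cells Ahnak was higher, at 63.0 and 126 CPM (2.00, 1.47 to 2.72), and in inflammatory monocyte-like cells its ratio was 1.05. Of 6 partners tested, 1 was 1.5-fold higher in LMC-like cells (12.5% of all genes) and 0 lower (14.9%), 1 higher in VSMC-like cells (12.5%) and 1 lower (28.8%), and 3 higher in the M1-like macrophages (16.2%) and 1 lower (30.1%).

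Over the 51 sums of a class and library with at least 20 cells, which share libraries and depth, the levels most like each member were described by Pearson's r of log2(CPM + 1) among 8404 genes. S100a8 and S100a9 were closest to each other (r = 0.95) and, outside the family, to Retnlg (0.87 and 0.90). S100a16 was closest to Tshz2 (0.97), Parva (0.97) and Cald1 (0.97), S100a10 to Manf (0.95), S100a13 to Selenof (0.92), S100a6 to Adprh (0.89), S100a1 to Colgalt1 (0.90), S100a4 to Nme1 (0.88) and S100a11 to Plp2 (0.85). Between members, S100a4 and S100a6, which lie 6836 bases apart, had r = 0.45, and S100a1 and S100a13, 42 bases apart, 0.63.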

How the data were processed

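UMI counts per gene and cell were deposited by the authors as filtered 10x Chromium 3′ matrices; per the file headers Cell Ranger 3.1.0 made tdT1 and 6.0.1 the others, against mm10 per the labels. Nothing was normalized. tdT1 was sequenced on another instrument than the other libraries. All barcodes were kept. Cells of the 4 libraries were integrated with Seurat 5.3.0 (anchors, 2000 features less 4 S100 genes, 30 dimensions, resolution 0.5), giving 21 clusters. These were named when at least 3 markers of a list were among the top 50 genes by fold. Clusters of high mitochondrial share, of mostly predicted doublets or led by genes of another kind were left unnamed. UMIs were summed per class and library and divided by all UMIs (CPM). Intervals are exact Poisson for levels, exact binomial for ratios and Clopper-Pearson for shares. Ratios used genes with at least 20 UMIs in WT and TNF-Tg together and classes with at least 20 cells in each, against a limit of 1.5-fold; a limit of 2-fold was also counted and is not described. Doublets were predicted with Scrublet (scanpy 1.11.5), and TMM factors came from edgeR 4.0.16. Named genes are the 9 members, fixed lists of receptors, partners, other S100 genes and neutrophil genes, and the most correlated genes per member. Members and lists were chosen with earlier results of these data known. Leaving out cells by neutrophil, leukocyte or M2 markers, or by their S100a4 UMIs, was chosen after seeing the data. The calculations were tested on simulated counts.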

Additional observations from a re-analysis of the deposited data

How the results depend on the processing

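Of 83 TNF-Tg over WT ratios of a member in a class, 32 were past 1.5-fold, and 26 of these kept their sign in every alternative run counted here. Of the 51 under 1.5-fold, 17 changed sign in at least 1 of these runs. The filter on doublets and cells with neutrophil RNA is not among these runs. With it S100a9 in M2 macrophage-like cells, counted among the 26, went from log2 1.94 to -0.46. Brackets below count changes of sign among ratios past 1.5-fold. Leaving out cells over 10% mitochondrial UMIs or under 500 genes moved 0 of 83, leaving S100 UMIs out of the denominator 2, predicted doublets 17 (4 with a change of sign), the mean of single-cell CPM 32 (1), TMM scaling 33 (0), clusters of WT and TNF-Tg alone 9 of 73 (1) and the gate on single cells 42 of 73 (1). Those changes of sign were all of S100a8 or S100a9. For S100a9 in T cell-like cells the log2 difference was -0.17 with clusters of WT and TNF-Tg alone and -0.23 with the gate. Without doublets it was -0.74 for S100a9 in inflammatory monocyte-like, 0.23 for S100a8 in M1 macrophage-like, 0.087 for S100a9 in Ear2 dendritic and -3.13 for S100a8 in T cell-like cells, and by the mean of single-cell CPM 0.066 for S100a9 in VSMC-like cells. The cause was not tested.

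The number of members at least 1.5-fold lower in LMC-like cells was 0 in the report, and 1 with clusters of WT and TNF-Tg alone, with the mean of single-cell CPM and with TMM scaling, and 2 with the gate, without doublets and without cells with leukocyte markers. In VSMC-like cells the lower count of 2 became 1 with the mean of single-cell CPM, with TMM scaling and without cells with leukocyte markers, and the higher count of 2 became 4 with TMM scaling. With the gate, the neutrophil-like counts were 0 higher and 1 lower. Without doublets 1 member was lower in inflammatory monocyte-like cells, and without cells with M2 markers 1 in place of 3 in M1 macrophage-like cells. Over genes with at least 1 UMI, the shares of all genes past 1.5-fold were 30.3% higher and 32.0% lower in neutrophil-like cells, 29.6% higher in inflammatory monocyte-like cells and 26.8% lower in LMC-like cells. TMM factors shifted the log2 differences of all genes by 0.10 in inflammatory monocyte-like, 0.15 in M1 macrophage-like, -0.11 in M2 macrophage-like, 0.14 in T cell-like and 0.18 in VSMC-like cells.

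As percent of the neutrophil-like level, WT LMC-like cells had 0.0155% of S100a8 and 0.0187% of S100a9 without doublets, and 0.00762% and 0.00873% without cells with 3 or more UMIs of the 7 neutrophil genes. WT VSMC-like cells had 0.0595% and 0.0568%, then 0.00695% and 0.00736%. TNF-Tg LMC-like cells had 0.00436% and 0.00558%, then 0.00454% and 0.00561%, and TNF-Tg VSMC-like cells 0.00303% and 0.00462%, then 0.00332% and 0.00458%.

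No paired analysis was possible because WT and TNF-Tg are 1 library each. Classes with few cells (24 Ear2 dendritic cells in TNF-Tg, 19 neutrophil-like cells in tdT1) limit depth, and some counts rest on single cells.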

Other observations

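Some classes had too few cells in WT or TNF-Tg for a ratio and are given as levels. Patrolling monocyte-like cells of TNF-Tg (190 cells, against 6 in WT) had 2569 CPM of S100a4, 2890 of S100a6 and 856 of S100a11, but 159 CPM of S100a10. Their S100a8, at 1042 CPM, sat in few cells, as 2 of them held 61.5% of the UMIs. Basophil-like cells of TNF-Tg (62 cells, against 7 in WT) had 2287 CPM of S100a10, 1977 of S100a11, 486 of S100a6 and 67.7 of S100a4. Endothelial-like cells of tdT1 (32 cells) had 373 CPM of S100a16, within the range of the stromal classes, and 4.52 CPM of S100a4.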
